A study of Oryza sativa Indica Group with 36 samples.

Results

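The genes described here carry the uptake and assimilation of nitrogen in rice: the nitrate transporter OsNRT1.1B, the ammonium transporter OsAMT1;1, the nitrate reductase OsNIA1, the nitrite reductase OsNiR1, the glutamine synthetases OsGS1;1 and OsGS2, and the glutamate synthases NADH-GOGAT1, NADH-GOGAT2 and Fd-GOGAT. They were taken by locus identifier, and 8 of the 9 were among the 35477 loci of the files. NADH-GOGAT1 (OS01G0681900) is not analysed here. The leaf RNA came from Guangluai4 (GL), an indica cultivar, and from OsPRR37-OE5 (OE), a line made in Guangluai4 that overexpresses the clock gene OsPRR37, which encodes a pseudo-response regulator. Seedlings of 45 days gave their topmost fully expanded leaf every 4 hours of a single natural long day, from 4:00 to 0:00, with 3 biological repeats of each genotype at each hour, which made 12 groups and 36 libraries. OE is a single overexpression line, and the promoter that drives the added gene is not given in the sources used here. Which plants a library holds is not stated, so p-values measure the spread between these libraries.

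Rice takes up nitrogen as nitrate and as ammonium. Nitrate is reduced to nitrite by nitrate reductase in the cytosol and then to ammonium by nitrite reductase in the plastid, and both enzymes are induced by nitrate in plants. Ammonium is joined to glutamate by glutamine synthetase, and glutamate synthase (GOGAT) passes the amide group of glutamine on to 2-oxoglutarate. In leaves the plastid enzymes GS2 and Fd-GOGAT also recapture the ammonium that photorespiration releases, while the cytosolic GS1;1 and the NADH-dependent GOGAT2 are known in rice for the export of nitrogen from older leaves through the vascular tissue.

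Libraries held 8065894 to 15769659 counts, with a median of 12531717. OsPRR37 was higher in OE by 4.42 on the log2 scale averaged over the hours (SE 0.08, adjusted p = 2.09e-26) and passed at each of the 6 hours. Of the root markers, RCc3 had 0 counts in all libraries, OsLsi2 had 9 counts in all and OsLsi1 had 10.8 to 70.3 CPM, and of the shoot meristem markers OSH1 had 0 counts and OSH15 had 41. GL replicate 3 at 0:00 carries a genotype field that names the overexpression line, and it was kept in GL by its title. OsPRR37 had 1.49 to 505 CPM over the 18 GL libraries, this library included, and 799.6 to 1726 CPM over the 18 OE libraries. Its OsPRR37 level thus lay below that of every OE library. In whole leaves, fewer cells of a type and less RNA per cell cannot be told apart. Tests are edgeR quasi-likelihood F tests over 21772 genes with p-values adjusted by Benjamini-Hochberg and called at 0.05. The share of all genes tested that passed the same test is given beside each count from these tests. For alternative fits it is given where it was taken. CPM values are counts scaled to library size and composition (TMM) and compare a gene between libraries. FPKM values, which also account for transcript length, compare levels between genes.

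None of the 8 genes was at 0 in any library, and all passed the filter on low counts. The plastid enzymes OsGS2 and Fd-GOGAT stood at the top. OsGS2 had a median of 1560.0 FPKM over the 36 libraries and Fd-GOGAT a median of 655 FPKM. Next came OsGS1;1 with a median of 97.3 FPKM and OsAMT1;1 with 46.1 FPKM. OsNIA1 (9.77 FPKM), OsNiR1 (8.47 FPKM), OsNRT1.1B (7.88 FPKM) and NADH-GOGAT2 (6.26 FPKM) had medians within a narrow range. Neighbours in this order overlapped in their ranges over the libraries in every case. OsAMT1;1 ran from 3.94 to 374 FPKM, OsNIA1 from 0.0916 to 284 FPKM and NADH-GOGAT2 from 0.707 to 147 FPKM.

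Replicate 1 stood apart from replicates 2 and 3 in OsNIA1, OsNiR1 and OsGS2, in both genotypes and at every hour. OsNiR1 in replicate 1 was 9.25 to 121 times the mean of replicates 2 and 3 of the same group in GL and 9.29 to 130 times in OE. OsNIA1 was 3.39 to 18.2 times that mean in GL and 6.58 to 211.5 times in OE. Replicate 1 was the highest of the 3 libraries in all 12 groups for OsNIA1, OsNiR1 and OsGS2; of all genes tested, 1.71% had replicate 1 highest and 2.09% had it lowest in all 12 groups. In a model with the replicate number as a term, added after these levels were seen, replicate 1 was higher than replicate 2 by log2 4.81 for OsNiR1 (adjusted p = 2.03e-10), 3.77 for OsNIA1 (adjusted p = 2.16e-08) and 0.70 for OsGS2 (adjusted p = 1.48e-06). Fd-GOGAT (log2 0.49), OsNRT1.1B (0.52) and OsGS1;1 (0.25) also passed as higher, so that 6 of the 8 genes passed against 35.2% of all genes. Against replicate 3, 5 of the 8 passed (35.2% of all genes), with log2 4.86 for OsNiR1 and 3.66 for OsNIA1. OsGS1;1 had log2 0.16 there (adjusted p = 0.0806). OsAMT1;1 (log2 -0.02 and -0.05) and NADH-GOGAT2 (-0.03 and -0.00) did not pass in either. Between replicates 2 and 3 none of the 8 passed in edgeR, with a smallest unadjusted p of 0.206, and 0.0230% of all genes did.

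Other genes of the pathway moved with the replicate number as well. Of 29 further nitrogen genes tested, 12 were higher and 9 lower in replicate 1 than in replicate 2, beside 18.8% and 16.4% of all genes. Against replicate 3, 11 were higher and 13 lower, beside 18.6% and 16.7%. The second nitrite reductase gene OsNiR2 was higher by log2 4.49 and 4.47, with 20.1 to 225 CPM in replicate 1 and 0.649 to 18.3 CPM in replicates 2 and 3. OsNR2, another nitrate reductase gene, was higher by 6.92 and 5.56, at 0.0685 to 19.3 CPM in replicate 1 and 0 to 0.32 CPM in replicates 2 and 3. It had few counts, 566 over all libraries and 0 in 15 of them, so these log2 values rest on levels near 0. The nitrate-inducible transcription factor gene OsNIGT1 was higher by 1.33 and 1.62. The root-type ferredoxin reductase gene OsRFNR1 (log2 0.97 and 0.90) and the ferredoxin gene OsFd4 (0.70 and 0.57), which supply nitrite reductase with electrons outside photosynthesis, were higher too. So was the leaf-type reductase gene OsFNR1 (log2 0.31 and 0.37), while the leaf-type ferredoxin gene OsFd1 (0.12 and 0.11) did not pass. In the other direction, the asparagine synthetase gene OsASN1 was lower in replicate 1 by log2 -3.87 and -3.54 and the ammonium transporter gene OsAMT3;2 by -2.07 and -2.31, and for each replicate 1 was lowest in all 12 groups. 

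Markers of other tissues also differed. The 3 secondary wall genes OsCesA4, OsCesA7 and OsCesA9 passed as higher in replicate 1 in both comparisons, by log2 1.23 to 1.94, and their summed level ran from 7.50 to 27.2 CPM in replicate 1 and from 1.54 to 17.2 CPM in replicates 2 and 3. Of 4 senescence genes, OsNAP (log2 -0.99 and -1.26) and OsPPH (-0.38 and -0.40) were lower in both comparisons, and the summed level of the 4 ran from 164 to 1098 CPM and from 183 to 1246 CPM. Of 4 mesophyll genes, OsRBCS3 and OsRBCS2 were higher by log2 0.46 to 0.52. CAB2R had log2 -0.30 and -0.50, and OsRCA, listed at 0 in 9 libraries, had -0.26 and 0.35, and neither gene passed. The 4 summed to 16450 to 101500 CPM in replicate 1 and 11430 to 75530 CPM in replicates 2 and 3. The part of these tissues in the nitrogen genes was not tested. What the replicate number marks is not stated, so a batch, a set of plants and a growth condition cannot be told apart. For the 8 genes, values in replicates 2 and 3 alone are given below where a call between the genotypes or over the day differs there.

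**Figure D1:**
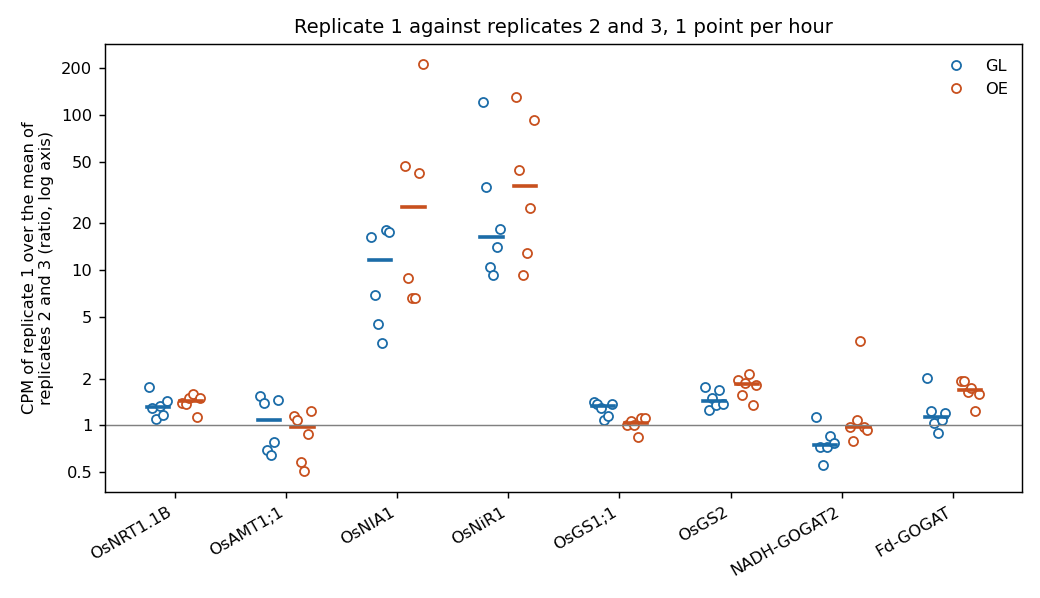
Replicate 1 against the mean of replicates 2 and 3 for each of the 8 genes, as a ratio of CPM on a log axis, with 1 point per hour and genotype and a bar at the median. OsNiR1 lies between 9.25 and 130 and OsNIA1 between 3.39 and 211.5, while the points of OsAMT1;1 and NADH-GOGAT2 fall on both sides of 1 and those of OsGS1;1 lie between 1.08 and 1.42 in GL and 0.849 and 1.12 in OE.

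Averaged over the hours, 3 of the 8 genes passed between the genotypes, against 26% of all genes tested. OsNRT1.1B was higher in OE (14% of all genes were higher), and OsAMT1;1 and NADH-GOGAT2 were lower (12.0% of all genes were lower). In replicates 2 and 3 alone, 5 of the 8 passed, against 31.1% of all genes: the same 3 genes, and OsNIA1 and OsNiR1 as lower in OE. The median log2 change of the 8 genes was 0.01, beside -0.00 over all genes. Over the day, 6 of the 8 genes changed in GL (69.7% of all genes) and 6 in OE (68.6%). OsNIA1 and OsNiR1 were the exceptions. All 8 changed in each genotype in replicates 2 and 3 alone, where the share of all genes was not taken. Between neighbouring hours from 4:00 on round to 4:00, 4, 3, 4, 2, 2 and 2 of the 8 passed in GL, where 37.2, 36.2, 31.9, 26, 10.8 and 9.09% of all genes did. In OE 3, 3, 4, 3, 2 and 1 passed, where 37.4, 33, 29.9, 26.4, 8.32 and 5.87% of all genes did. OsAMT1;1 passed at 5 of the 6 steps in both genotypes, as did NADH-GOGAT2. The libraries of GL and OE did not overlap for 1, 2, 1, 2, 2 and 1 of the 8 genes at the hours from 4:00 to 0:00, beside 17.1, 21.8, 16.4, 24.2, 21.2 and 17.9% of all genes. None of the 8 passed the test of genotype by hour, which asks whether the difference between the genotypes varies over the day, against 1.88% of all genes. OsAMT1;1 and NADH-GOGAT2 had an unadjusted p below 0.05. DESeq2 called 2 of the 8, and limma on log2(FPKM + 1) called 1, with the share of all genes not taken for either. Of the tissue markers, CAB2R of the 4 mesophyll genes was lower in OE by log2 -1.29. NYC1 of the 4 senescence genes was higher by 0.27 (in replicates 2 and 3 alone SGR passed too, by 0.41). The senescence genes OsPPH (log2 -0.25, adjusted p = 0.0591) and OsNAP (-0.20, adjusted p = 0.621) had the other sign and did not pass. The root gene OsLsi1 was lower by -0.65, and none of the 3 secondary wall genes passed (log2 0.44 to 0.82). The summed level of these lists ran from 12150 to 101500 CPM in GL and 11430 to 74150 CPM in OE for mesophyll, from 164 to 1246 and 206 to 1098 CPM for senescence, from 13.2 to 70.3 and 10.8 to 36.8 CPM for root, and from 1.91 to 18.6 and 1.54 to 27.2 CPM for secondary wall. Their part in the differences of the nitrogen genes was not tested.

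**Figure D2:**
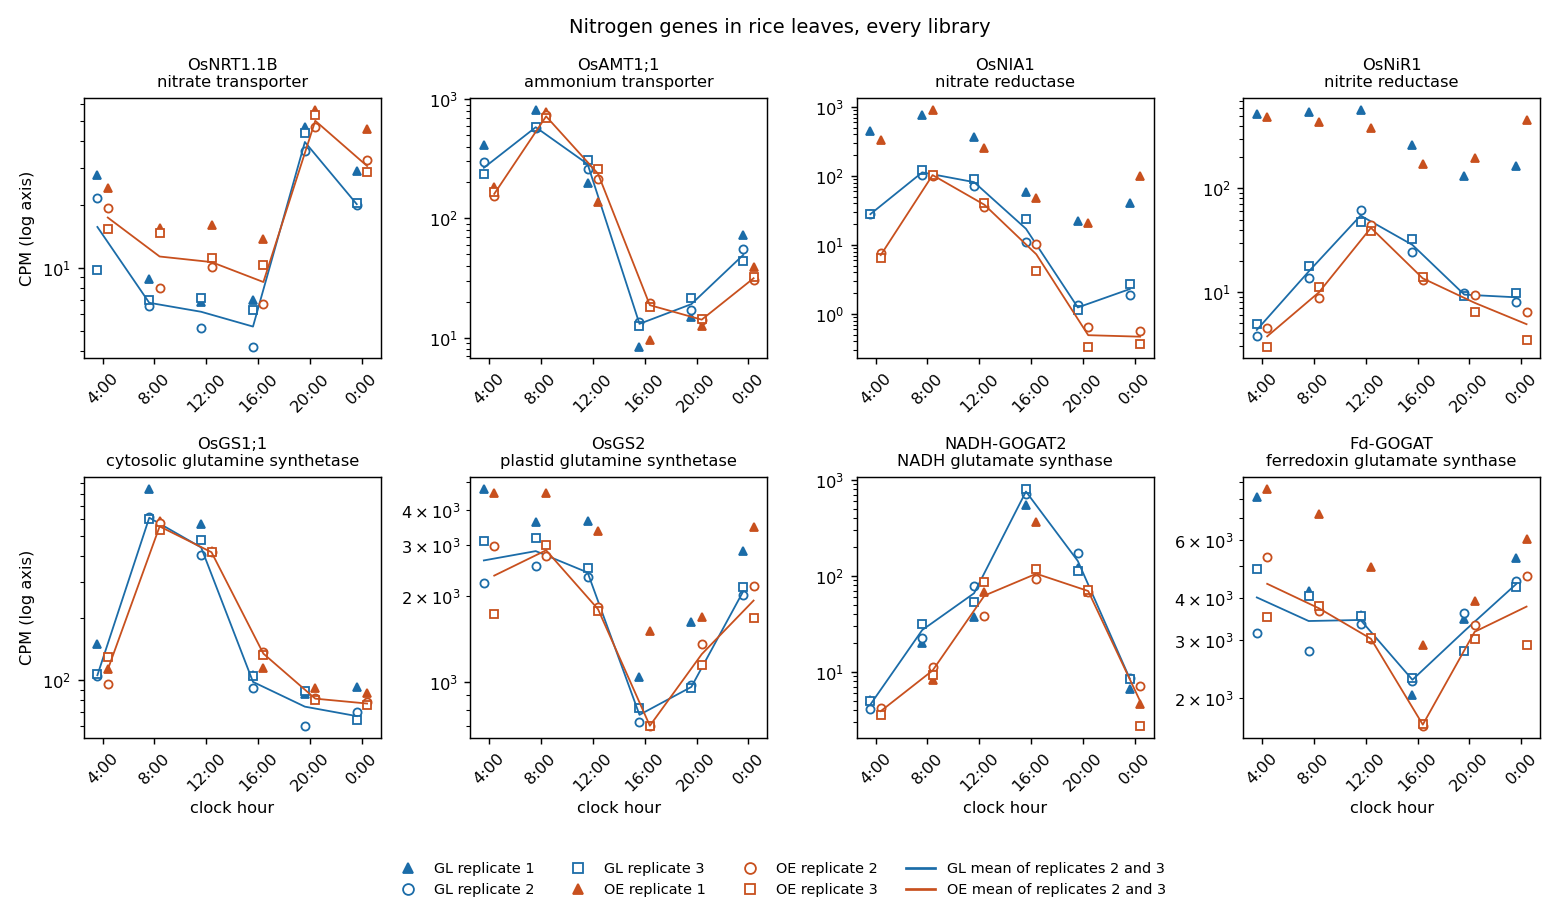
CPM on a log axis against the clock hour for each of the 8 genes, with every library of GL (blue) and OE (orange); filled triangles are replicate 1, open circles and squares are replicates 2 and 3, and lines join the mean of replicates 2 and 3. NADH-GOGAT2 peaks at 16:00 in both genotypes, with replicates 2 and 3 of OE at 92.3 and 118 CPM against 708 and 803 CPM in GL, and replicate 1 of OsNIA1 and OsNiR1 lies above the other libraries of its group at all hours.

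OsNRT1.1B (OS10G0554200; IRGSP-1.0, chromosome 10, 21758281 to 21762111, minus strand) encodes a nitrate transporter known for a sequence difference between indica and japonica rice that affects nitrate use. It was low by day and rose in the evening. In GL the 3 libraries, in the order of replicates 1 to 3, had 8.87, 6.60 and 7.03 CPM at 8:00, 6.85, 5.15 and 7.2 at 12:00, and 7.03, 4.22 and 6.29 at 16:00. At 20:00 they had 46.7, 35.8 and 43.6 CPM, at 0:00 they had 28.8, 19.9 and 20.2, and at 4:00 they had 27.6, 21.6 and 9.75. The rise from 16:00 to 20:00 was 2.85 on the log2 scale in GL (adjusted p = 7.56e-08) and 2.35 in OE (adjusted p = 9.78e-07), and the mean at 20:00 was 7.19 times that at 16:00 in GL and 5.09 times in OE.

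OE had the higher OsNRT1.1B level in 16 of the 18 comparisons of libraries with the same hour and replicate number. The numbers were not taken to pair the libraries, so such counts, here and below, describe direction and are not a test. The same counts were not taken over all genes. In OE the libraries had 15.5, 8.02 and 14.6 CPM at 8:00, 15.9, 10.1 and 11.2 at 12:00, and 13.7, 6.75 and 10.4 at 16:00. They had 56.5, 46.6 and 53.6 CPM at 20:00, 45.9, 32.5 and 28.5 at 0:00, and 24.1, 19.3 and 15.3 at 4:00. At 12:00 all OE libraries lay above all GL libraries, and at the other hours the groups overlapped. The averaged difference was log2 0.58 (SE 0.12, adjusted p = 0.000878), and it was 0.56 in replicates 2 and 3 alone (adjusted p = 0.00339). The median of the hourly log2 ratios within replicates 1, 2 and 3 was 0.74, 0.53 and 0.64. By single hours the difference ran from 0.00 at 4:00 to 0.95 at 12:00 and passed the adjusted threshold at none.

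OsAMT1;1 (OS04G0509600; chromosome 4, 25500017 to 25502732, plus strand) encodes an ammonium transporter of the plasma membrane. Of 2 loci that overlap it on the other strand, OS04G0508900 had 6.10% of its counts and OS04G0509500 had 1.78%. Its level was highest at 8:00 and lowest in the late afternoon and evening. In GL the 3 libraries had 814, 574 and 588 CPM at 8:00, 199, 259.6 and 311 at 12:00, and 8.44, 13.6 and 12.6 at 16:00. They had 15, 16.9 and 21.3 CPM at 20:00, 72.0, 55.1 and 43.7 at 0:00, and 409, 296 and 236 at 4:00. The mean at 8:00 was 57.2 times the lowest mean in GL, at 16:00, and 54.2 times the lowest mean in OE, at 20:00. The change from 12:00 to 16:00 was log2 -4.47 in GL (adjusted p = 8.56e-13) and -3.70 in OE (adjusted p = 2.73e-11). The rise from 0:00 to 4:00 was 2.46 in GL (adjusted p = 5.96e-08) and 2.31 in OE (adjusted p = 2.74e-07).

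In OE, OsAMT1;1 was lower before dawn. The OE libraries had 185, 155 and 166 CPM at 4:00, 12.5, 14.1 and 14.2 at 20:00, and 39.1, 30.6 and 32.4 at 0:00, and at each of these hours they lay below all GL libraries. By day the groups overlapped, with 778, 735 and 698 CPM in OE at 8:00, 138, 213 and 262 at 12:00 and 9.49, 19.6 and 17.9 at 16:00. The difference at 4:00 was log2 -0.90 (SE 0.25, adjusted p = 0.0338), and OsAMT1;1 was the only 1 of the 8 genes to pass at that hour, against 4.48% of all genes. At 20:00 it was -0.38 (adjusted p = 0.617, and 0.137 in replicates 2 and 3 alone). At 0:00 it was -0.74 (SE 0.25, adjusted p = 0.15), and in replicates 2 and 3 alone it passed there with -0.66 (adjusted p = 0.0148). At 16:00 it had the opposite sign, 0.44 (SE 0.26, adjusted p = 0.337), and passed as higher in OE in replicates 2 and 3 alone with 0.55 (adjusted p = 0.0261).

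The averaged difference of OsAMT1;1 was log2 -0.29 (SE 0.10, adjusted p = 0.0366), near the threshold. OE was lower in 13 of 18 same-numbered comparisons. The adjusted p lay between 0.0510 and 0.0683, with a log2 change of -0.25 to -0.29, when 1 of these 12 libraries was left out: GL replicate 1 at 4:00, 8:00 or 0:00, GL replicate 2 at 16:00, GL replicate 3 at 12:00, 16:00 or 20:00, OE replicate 1 at 16:00 or 20:00, OE replicate 2 at 4:00 or 0:00, or OE replicate 3 at 0:00. The call at 4:00 was lost without GL replicate 1 at 4:00 (log2 -0.66, adjusted p = 0.203), without GL replicate 2 at 4:00 (-0.94, adjusted p = 0.0621) and without OE replicates 1, 2 or 3 at 4:00 (-0.96, -0.84 and -0.89, with adjusted p of 0.0513, 0.119 and 0.121). It was also lost without GL replicate 2 at 12:00 or OE replicates 2 or 3 at 8:00 (adjusted p of 0.0505 to 0.0514). In edgeR the test of genotype by hour gave OsAMT1;1 an adjusted p of 0.159 over all libraries and 0.00366 in replicates 2 and 3 alone, where 7.40% of all genes passed.

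**Figure D3:**
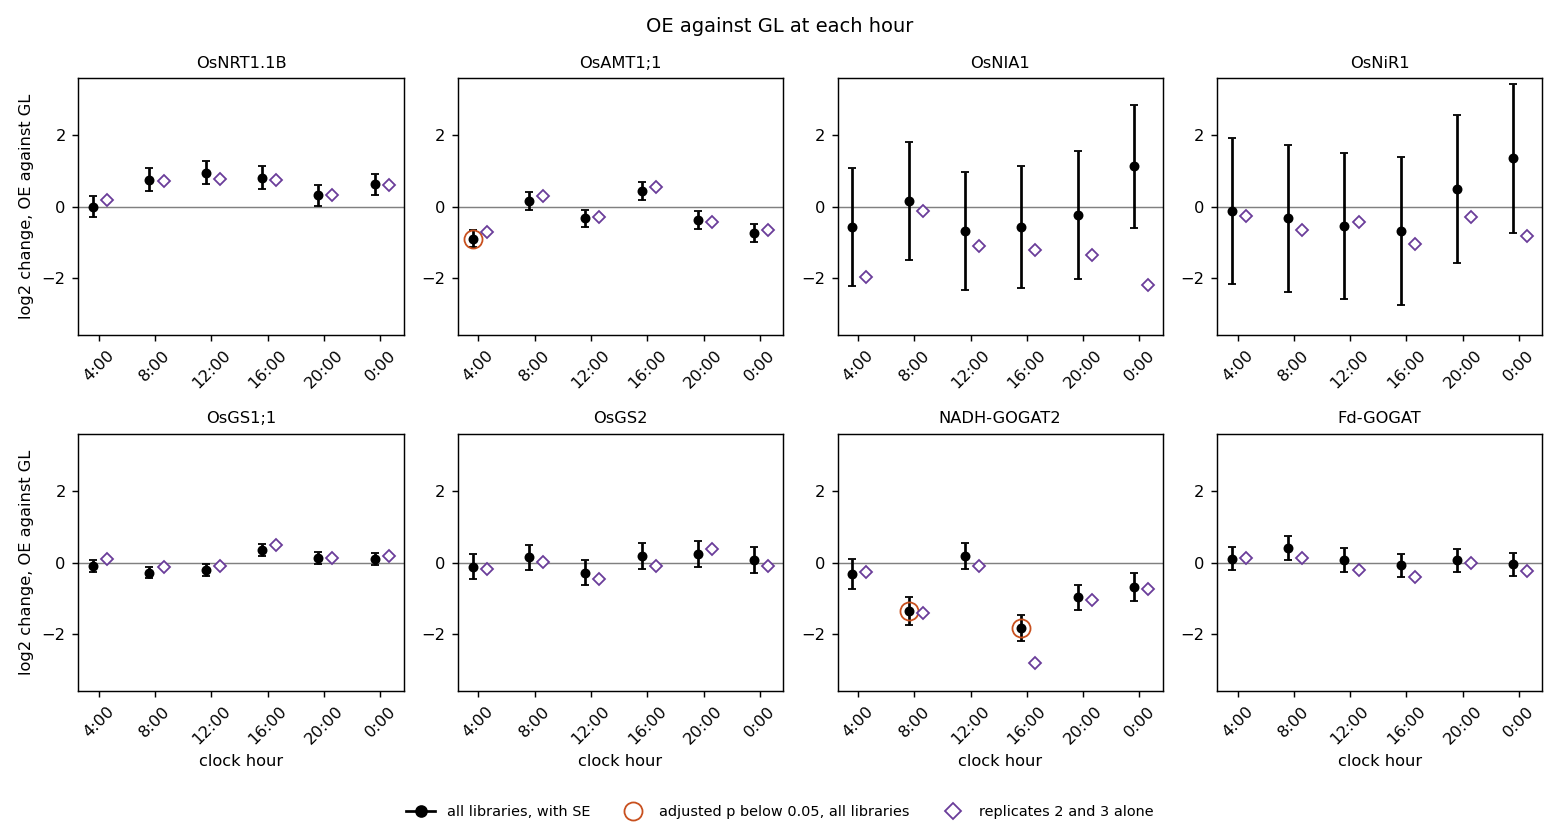
Log2 change of OE against GL at each clock hour for the 8 genes, over all libraries with its SE (black) and in replicates 2 and 3 alone (purple); orange rings mark an adjusted p below 0.05 over all libraries. Rings stand at 4:00 for OsAMT1;1 and at 8:00 and 16:00 for NADH-GOGAT2, and the SE bars of OsNIA1 and OsNiR1 span more than 3 log2 units.

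OsNIA1 (OS08G0468100; chromosome 8, 23033230 to 23052438, plus strand) encodes a nitrate reductase. The annotated span of 19209 bases also holds OS08G0468400, whose counts came to 0.566% of those of OsNIA1, and is crossed on the other strand by OS08G0468200, whose counts came to 14.2%; the library kit does not mark the strand, so reads of overlapping genes cannot be told apart. OsNIA1 peaked at 8:00 in all replicates and both genotypes. In GL, replicate 1 had 454, 776, 369, 58.2, 22.6 and 40.5 CPM from 4:00 to 0:00. Replicates 2 and 3 had 27.9 and 28 CPM at 4:00, 102 and 124 at 8:00, and 72.6 and 90.3 at 12:00. Levels then were 10.9 and 23.4 CPM at 16:00, 1.35 and 1.14 at 20:00, and 1.88 and 2.71 at 0:00. The mean at 8:00 was 34.3 times that at 20:00 in replicate 1 and 90.7 times in replicates 2 and 3.

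In OE, replicate 1 of OsNIA1 had 333, 910.4, 255, 48.2, 20.9 and 99.3 CPM from 4:00 to 0:00. Replicates 2 and 3 had 7.71 and 6.54 CPM at 4:00, 101 and 105 at 8:00, and 36.0 and 40.5 at 12:00. The later levels were 10.5 and 4.18 CPM at 16:00, 0.649 and 0.338 at 20:00, and 0.569 and 0.370 at 0:00. With all libraries the groups overlapped at every hour, and the averaged difference was log2 -0.13 (SE 0.69, adjusted p = 0.931). OE was lower in 16 of 18 same-numbered comparisons. These were all 6 hours in replicate 2, all 6 in replicate 3 and 4 of 6 in replicate 1, and the median hourly log2 ratio was -0.19, -1.04 and -1.92 in replicates 1, 2 and 3. In replicates 2 and 3 alone the averaged difference was log2 -1.33 (adjusted p = 3.64e-05), and single hours passed at 4:00 (log2 -1.98, adjusted p = 0.000915), 12:00 (-1.11, adjusted p = 0.0327) and 16:00 (-1.22, adjusted p = 0.017). At 0:00 the difference was -2.21 there (adjusted p = 0.0546). Whether replicate 1 differed from replicates 2 and 3 in its genotype difference was not tested. Leaving out single libraries moved the averaged value from log2 -1.15 to 0.33, and it was positive when the library left out was any of the 6 replicate 1 libraries of GL.

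OsNiR1 (OS01G0357100; chromosome 1, 14446952 to 14453257, plus strand) encodes a nitrite reductase. It is covered almost throughout by OS01G0357150 on the other strand (14447634 to 14453473), whose counts came to 285% of those of OsNiR1. OsNiR1 took 20.5 to 29.4% of the counts of the pair over the libraries, and its level cannot be told apart from that of its partner. Replicate 1 held OsNiR1 at 132 to 574 CPM in GL and at 173 to 484 CPM in OE. In replicates 2 and 3 it followed the day, with 3.73 and 4.87 CPM in GL at 4:00, 13.5 and 18.0 at 8:00, and 62.4 and 46.9 at 12:00. From there it went to 24.3 and 32.6 CPM at 16:00, 9.78 and 9.08 at 20:00, and 8.02 and 9.74 at 0:00. The mean of replicates 2 and 3 at 12:00 was 12.7 times that at 4:00 in GL and 11.2 times in OE, while in replicate 1 the highest mean was 4.34 times the lowest in GL and 2.79 times in OE. With all libraries the change over the day did not pass (adjusted p = 0.889 in GL and 0.979 in OE), and in replicates 2 and 3 alone it did (1.46e-08 and 1.62e-08).

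In OE, replicates 2 and 3 of OsNiR1 had 4.49 and 2.97 CPM at 4:00, 8.83 and 11.1 at 8:00, and 44.5 and 38.8 at 12:00. After midday they had 13 and 14 CPM at 16:00, 9.35 and 6.37 at 20:00, and 6.37 and 3.40 at 0:00. OE was lower in 15 of 18 same-numbered comparisons. The averaged difference was log2 0.03 with all libraries (SE 0.84, adjusted p = 0.994) and -0.58 in replicates 2 and 3 alone (adjusted p = 0.000811). By single hours it passed in replicates 2 and 3 alone at 16:00 (log2 -1.04, adjusted p = 0.00885). In replicate 1 the widest gap went the other way, with 456 CPM in OE and 164 CPM in GL at 0:00. Leaving out single libraries moved the averaged value between log2 -0.88 and 0.92, and it was negative when the library left out was any of the 6 replicate 1 libraries of OE or any of the 12 replicate 2 or 3 libraries of GL.

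OsGS1;1 (OS02G0735200; chromosome 2, 30675189 to 30678496, minus strand) encodes a cytosolic glutamine synthetase. It rose in the morning by log2 2.51 from 4:00 to 8:00 in GL (adjusted p = 6.99e-12) and by 2.33 in OE (adjusted p = 2.31e-11). It fell from 12:00 to 16:00, with log2 -2.26 in GL (adjusted p = 3.5e-11) and -1.71 in OE (adjusted p = 8.29e-09). GL libraries had 842, 619 and 605 CPM at 8:00 and OE libraries had 591, 575 and 535, all below GL. At 16:00 the order was turned, with 106, 91.6 and 105 CPM in GL and 114, 136 and 133 in OE, and the groups did not overlap. Neither hour passed over all libraries (log2 -0.28, adjusted p = 0.439, and 0.34, adjusted p = 0.233); at 16:00 replicates 2 and 3 alone gave 0.49 (adjusted p = 0.0431). The averaged difference was log2 -0.01 (SE 0.07, adjusted p = 0.972).

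OsGS2 (OS04G0659100; chromosome 4, 33623966 to 33631139, minus strand) encodes the plastid glutamine synthetase. GL libraries had 4724, 2209 and 3106 CPM at 4:00, 3638, 2330 and 2495 at 12:00, and 1042, 723 and 810.0 at 16:00. OE libraries had 4591, 2976 and 1729 CPM at 4:00, 3379, 1821 and 1771 at 12:00, and 1505, 702 and 702 at 16:00. The change from 12:00 to 16:00 was log2 -1.72 in GL (adjusted p = 0.000575) and -1.26 in OE (adjusted p = 0.00954), and at every hour the genotypes overlapped. The averaged difference was log2 0.04 (SE 0.15, adjusted p = 0.886). On the FPKM scale OsGS2 made up 77.1 to 97.1% of the sum of the 2 synthetases. Its share was lowest at 8:00 in GL, at 78.8% ± 2.17 (SD, n = 3), and at 12:00 in OE, at 80.9% ± 5.15 (SD, n = 3), when OsGS1;1 was near its own peak.

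NADH-GOGAT2 (OS05G0555600; chromosome 5, 27622108 to 27636526, plus strand) encodes an NADH-dependent glutamate synthase. It had the widest daily range of the 8 genes in GL over all libraries. GL libraries had 5.14, 4.09 and 5.01 CPM at 4:00, 19.9, 22.6 and 31.9 at 8:00, and 36.9, 78.0 and 53.8 at 12:00. They had 550.1, 708 and 803 CPM at 16:00, 122, 172 and 114 at 20:00, and 6.60, 8.59 and 8.47 at 0:00. The peak at 16:00 was 145 times the level at 4:00. The rise from 12:00 to 16:00 was log2 3.61 (adjusted p = 2.41e-08), and the change from 20:00 to 0:00 was -4.11 (adjusted p = 3.53e-08).

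In OE the afternoon peak of NADH-GOGAT2 was lower. OE libraries had 366, 92.3 and 118 CPM at 16:00, all below GL, and replicate 1 was 3.48 times the mean of replicates 2 and 3. They had 8.18, 11.3 and 9.36 CPM at 8:00 and 67.7, 67.2 and 71.7 at 20:00, again all below GL. At 12:00 the groups overlapped, with 67.3, 38.6 and 85.9 CPM, as they did at 4:00 (3.77, 4.21 and 3.57) and at 0:00 (4.64, 7.17 and 2.74). The peak was 49.9 times the level at 4:00 over all OE libraries, 97.1 times in replicate 1 and 27.1 times in replicates 2 and 3. The rise from 12:00 to 16:00 was log2 1.59 in OE (adjusted p = 0.00134), and in replicates 2 and 3 alone it did not pass (adjusted p = 0.0696).

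The averaged difference of NADH-GOGAT2 was log2 -0.83 (SE 0.16, adjusted p = 0.000193), with OE lower in 15 of 18 same-numbered comparisons, and it was -1.06 in replicates 2 and 3 alone (adjusted p = 5.41e-05). At 16:00 the difference was log2 -1.84 (SE 0.36, adjusted p = 0.00197), the only 1 of the 8 genes to pass at that hour, where 7.91% of all genes did. Without OE replicate 1 at 16:00 it was -2.71 (adjusted p = 4.19e-06), and it passed whichever of the 36 libraries was left out. At 8:00 it was -1.37 (SE 0.39, adjusted p = 0.047), again the only 1 of the 8 to pass, where 3.31% of all genes did. Leaving out 1 library at a time ended that call in 26 of 36 fits, with log2 values of -1.51 to -1.16 over the 36 and adjusted p values of up to 0.167; it was kept when the library left out was GL replicate 1 or 2 at 12:00, OE replicate 1, 2 or 3 at 12:00 or 16:00, or OE replicate 2 or 3 at 0:00. At 20:00 it was -0.98 (SE 0.36, adjusted p = 0.182), and without OE replicate 1 at 16:00 the adjusted p there was 0.0454. For genotype by hour, edgeR gave NADH-GOGAT2 an adjusted p of 0.181 over all libraries, 0.00152 without OE replicate 1 at 16:00, and 0.0135 in replicates 2 and 3 alone.

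Fd-GOGAT (OS07G0658400; chromosome 7, 27722988 to 27738187, minus strand) encodes the ferredoxin-dependent glutamate synthase of the plastid. Of the 6 genes that changed over the day with all libraries, it had the smallest ratio of peak to trough in both genotypes. GL libraries had 8082, 3149 and 4902 CPM at 4:00 and 2045, 2249 and 2295 at 16:00, and OE libraries had 8545, 5344 and 3505 at 4:00 and 2901, 1651 and 1677 at 16:00. The mean at 4:00 was 2.45 times that at 16:00 in GL and 2.79 times in OE, and the change over the day passed in both (adjusted p = 0.019 and 0.00615). No step between neighbouring hours passed over all libraries; in replicates 2 and 3 alone the OE steps from 12:00 to 16:00 (log2 -0.83, adjusted p = 0.0148) and from 16:00 to 20:00 (0.91, adjusted p = 0.00949) did. The genotypes overlapped at every hour, and the averaged difference was log2 0.09 (SE 0.13, adjusted p = 0.691).

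The 2 GOGAT genes moved in opposite directions over the day. Over the 12 group means of log2 CPM, which share the libraries and the hour, their Pearson r was -0.917. Fd-GOGAT made up 99.1% of their summed FPKM as a median over the libraries. Its share was lowest at 16:00, at 79.2, 75.4 and 74.2% in the GL libraries and 89.3, 94.2 and 93.0% in the OE libraries, so that OE lay above GL without overlap. The mean at 16:00 was 76.3% ± 2.62 in GL and 92.2% ± 2.56 in OE (SD, n = 3 each). OE also lay above GL without overlap at 8:00, 20:00 and 0:00, where the lowest share was 95.4%. Fd-GOGAT itself overlapped between the genotypes at every hour, while NADH-GOGAT2 did not at 8:00, 16:00 and 20:00. OsGS2 followed Fd-GOGAT (r = 0.855 over the 12 means) and OsAMT1;1 (0.899). OsGS1;1 followed OsNIA1 (0.878) and OsAMT1;1 (0.786), and OsAMT1;1 followed OsNIA1 (0.849). NADH-GOGAT2 ran against OsGS2 (-0.830), and OsNRT1.1B ran against OsNIA1 (-0.777) and OsNiR1 (-0.757). All other pairs had an r between -0.639 and 0.706.

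**Figure D4:**
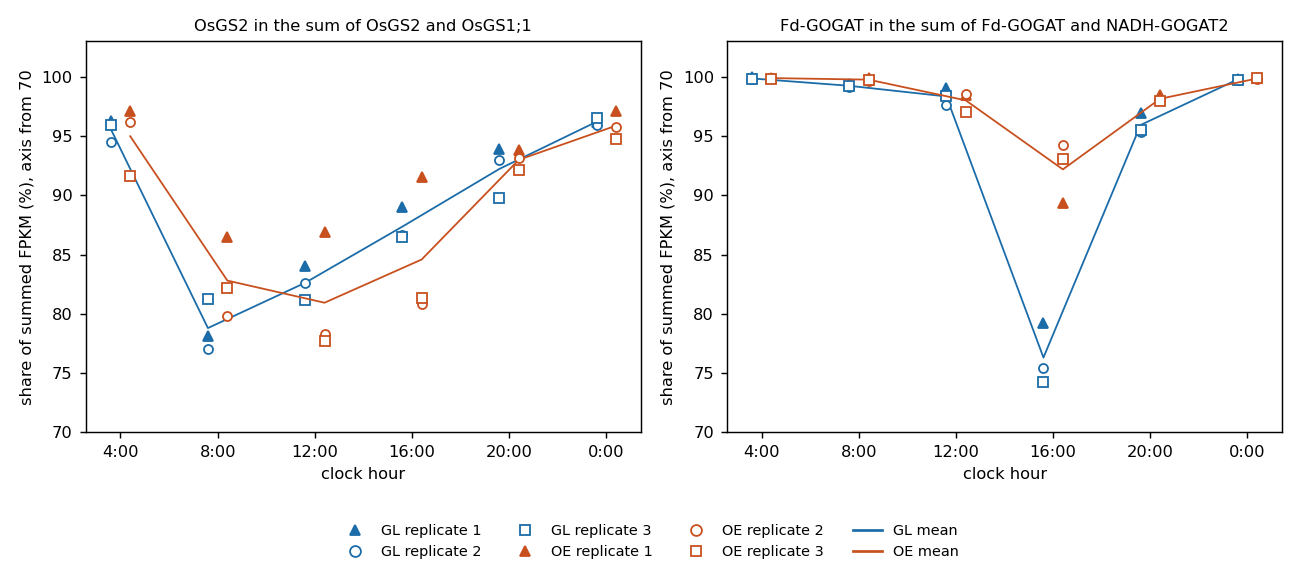
Share of OsGS2 in the summed FPKM of OsGS2 and OsGS1;1 (left) and share of Fd-GOGAT in the summed FPKM of Fd-GOGAT and NADH-GOGAT2 (right), in percent on an axis that starts at 70, against the clock hour; points are libraries and lines join the means of 3. At 16:00 the Fd-GOGAT share was 74.2 to 79.2% in GL and 89.3 to 94.2% in OE.

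No other hour gave a call over all libraries among the 8 genes: at 12:00 2.02% of all genes passed, at 20:00 2.51% and at 0:00 2.33%. DESeq2 and limma called none there either, while edgeR scaled by library totals and edgeR with the replicate number as a term each called 1 at 12:00. Unadjusted p values below 0.05 at these hours were those of OsNRT1.1B at 12:00 (0.00609) and 0:00 (0.0396), OsAMT1;1 at 0:00 (0.00635) and NADH-GOGAT2 at 20:00 (0.0108). In replicates 2 and 3 alone, 5 of the 8 passed at 16:00 (17.9% of all genes), 2 at 4:00 (8.45%), and 1 each at 8:00 (3.88%), 12:00 (5.71%) and 0:00 (5.42%). At 20:00 none did (5.28% of all genes).

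Beyond the 8, a list of 41 further genes of nitrogen transport, reduction, signalling and amino acid metabolism had 37 members in the files and 29 that passed the filter on low counts. Averaged over the hours, 9 of the 29 were higher and 1 lower in OE, beside 14% and 12.0% of all genes, and their median log2 change was 0.17 beside -0.00 over all genes. In replicates 2 and 3 alone 13 passed, beside 31.1% of all genes. OsAMT3;2 (log2 0.83), OsNiR2 (0.70), OsGLB (0.18) and OsNLP1 (-0.17) passed there and not over all libraries, and OsNIGT1 passed over all libraries and not there. OsASN1, an asparagine synthetase gene, had the largest value: its libraries had 0 to 19.4 CPM in GL, with a median of 1.79, and 0 to 97.9 CPM in OE, with a median of 8.05. OE was higher in 16 of 18 same-numbered comparisons, by log2 2.36 (SE 0.57, adjusted p = 0.00262). Its GL and OE medians were 5.33 and 37.9 CPM in replicates 2 and 3 and 0.337 and 1.60 CPM in replicate 1.

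Of 8 genes tested for asparagine synthetases, glutamate dehydrogenases and aminotransferases, 6 passed as higher in OE, OsASN1 among them, beside 14% of all genes. OsASN2 (log2 0.17, adjusted p = 0.112) and OsAAT1 (0.06, adjusted p = 0.537) did not pass. The alanine aminotransferase gene OsAlaAT1 (log2 0.61, SE 0.13, adjusted p = 0.000766) and the glutamate dehydrogenase gene OsGDH2 (0.40, SE 0.08, adjusted p = 0.000214) were higher in OE in 18 of 18 same-numbered comparisons. OsGDH1 (log2 0.47), the aspartate aminotransferase gene OsAAT2 (0.24) and OsAlaAT2 (0.19) also passed. Between replicate numbers, OsAlaAT1, OsGDH2, OsAAT2 and OsAlaAT2 passed as lower in replicate 1 in both comparisons, by log2 -0.66 to -0.21. The isocitrate dehydrogenase gene OsICDH1, listed for carbon skeletons, was higher by 0.44 (adjusted p = 0.00239), and the glutamine synthetase gene OsGS1;2 had 0.02 (adjusted p = 0.944). The ammonium transporter gene OsAMT3;3 was higher by 1.19 (SE 0.32, adjusted p = 0.00608), the opposite direction to OsAMT1;1, at 0.721 to 7.99 CPM in GL and 1.43 to 30.2 CPM in OE. It was also lower in replicate 1 than in replicates 2 and 3, by log2 -1.63 and -1.71. In OE it had 1.43 to 3.06 CPM in replicate 1 and 2.85 to 30.2 CPM in replicates 2 and 3. The genotypes overlapped at every hour. OsNIGT1 was higher by 0.98 (adjusted p = 0.0223) over all libraries and by 0.46 in replicates 2 and 3 alone, where it did not pass (adjusted p = 0.0638). The nitrate-signalling transcription factor gene OsNLP3 was lower by log2 -0.23 (adjusted p = 0.0218). Of 4 genes for ferredoxins and their reductases, none passed (log2 -0.20 to 0.18), beside 26% of all genes. The unadjusted p was below 0.05 for OsFNR1 (0.0486). In replicates 2 and 3 alone OsRFNR1 passed as higher (0.21, adjusted p = 0.0298), where 31.1% of all genes passed.

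**Figure D5:**
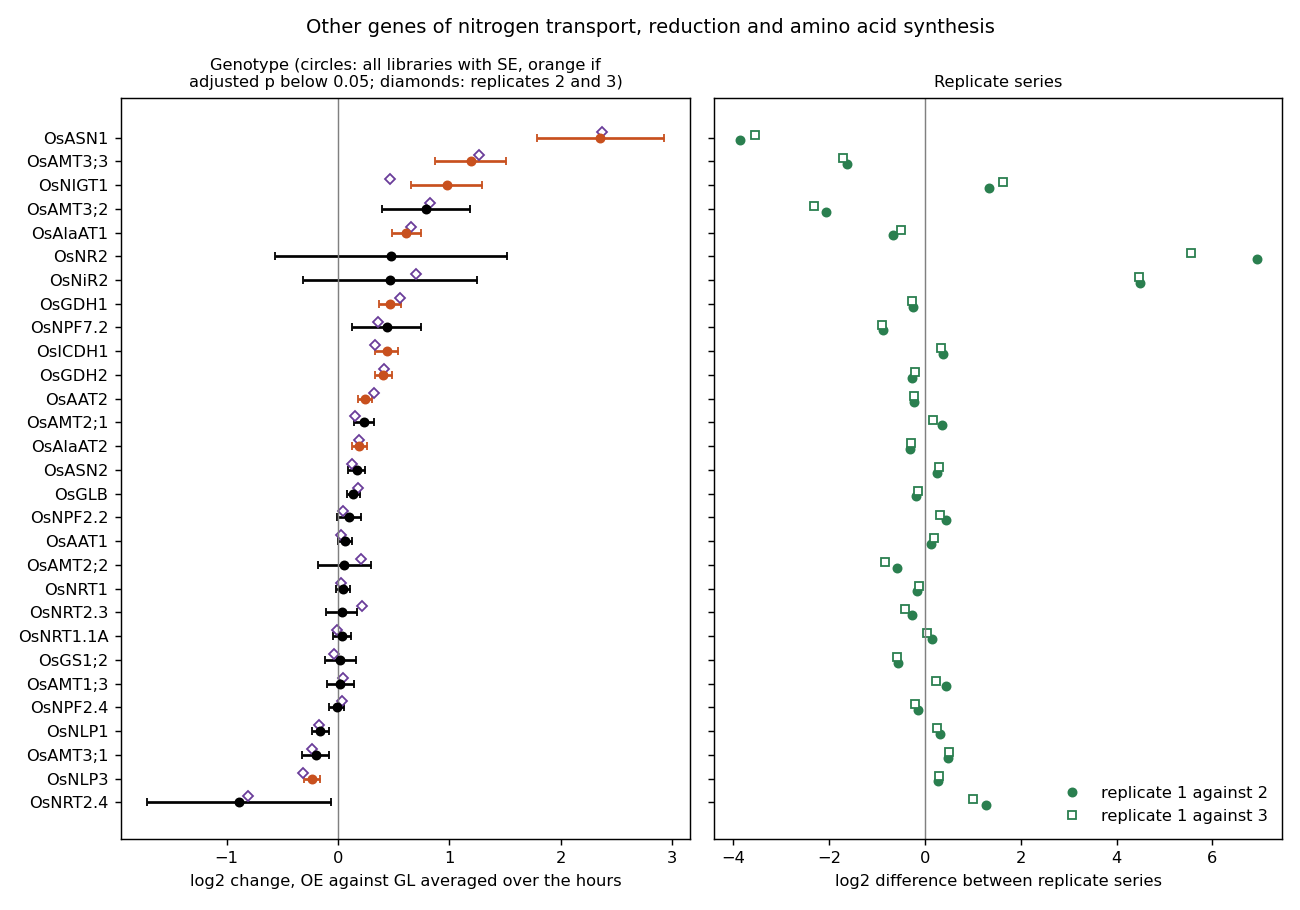
The 29 further nitrogen genes tested: log2 change of OE against GL averaged over the hours (left; circles with SE over all libraries, orange at an adjusted p below 0.05, diamonds for replicates 2 and 3 alone, with none for OsNR2) and log2 difference of replicate 1 against replicates 2 and 3 (right). OsASN1 lies at 2.36 for the genotype and at -3.87 and -3.54 for the replicates, and OsNR2 and OsNiR2 lie at 4.47 to 6.92 for the replicates.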

How the data were processed

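Leaf RNA was sequenced in 36 libraries, 3 for each of 2 genotypes at 6 clock hours; groups come from the titles and the sampling hours. Per the labels' protocols, TRIzol-isolated, DNase-treated RNA was made into libraries with a NEBNext Ultra kit; strand is not marked. The build IRGSP-1.0 and the tools TopHat2, Cufflinks and Cuffdiff are named per the submitters' processing notes, without versions. The deposited files give, per locus and library, an estimated count, a whole number whose values match estimates rounded up, and an FPKM value computed by the authors. Depth ran from 8065894 to 15769659 counts per library. No replicates were merged: every pair in a group had a chi-square per gene of 6.09 to 88.4, taken over genes whose counts in the pair came to 20 or more, far above counting noise.

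The counts were tested with edgeR 4.0.16 in R 4.3.3: a filter by filterByExpr for the 12 groups, with a minimum count of 10 and a total of 15, kept 21772 genes, libraries were scaled by TMM, and quasi-likelihood F tests with Benjamini-Hochberg adjustment over all genes kept were run in 1 model of the 12 groups. Standard errors are the log2 change divided by the square root of F. CPM values are on TMM-scaled library sizes. Alternatives were other size factors, no filter, DESeq2 1.42.0, limma 3.58.1 on log2(FPKM + 1) and log2(FPKM + 0.1), the replicate number as a block, replicates 2 and 3 alone, each library left out in turn, and GL replicate 3 at 0:00 grouped as OE; the sum of OsNiR1 with its opposite-strand locus and the tests between replicate numbers were added after the data were seen. The scripts were tested on simulated data.

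The genes and lists were chosen with earlier results of these data known. The text names all 9 genes, every gene of the further lists that passed in the averaged comparison, the genes used as tissue markers and, for the replicate difference and for genes that nearly passed, some chosen after their values were seen. Gene names are not in the files. A reference table of another assembly, ASM3414082v1, had 5 of the 8 names on the same chromosome with a start within 5 Mb. It held no name for 3. A window of that width does not tie a name to a single locus. Of the further list, 4 of 41 genes were not in the files and are not analysed here.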

Additional observations from a re-analysis of the deposited data

How the results depend on the processing

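NADH-GOGAT2 (log2 -1.06 to -0.745) and OsNRT1.1B (0.477 to 0.669) kept their direction and passed in all 46 alternatives of the averaged comparison. OsAMT1;1 did not pass with library totals (-0.189, adjusted p = 0.218), with limma at a pseudocount of 0.1 (-0.27, adjusted p = 0.0623) or when 1 of the 12 libraries named in the text was left out. Library totals moved the median of all genes by 0.09. The count of 3 genes averaged over the hours was 5 in replicates 2 and 3 alone. At 4:00 the count of 1 was 0 with library totals and with no filter, and 2 in replicates 2 and 3 alone. At 8:00 the count of 1 was 0 with library totals, with no filter and with GL replicate 3 at 0:00 grouped as OE. At 12:00 the count of 0 was 1 with library totals, with the replicate block and in replicates 2 and 3 alone. At 16:00 the count of 1 was 2 with library totals and with the replicate block, and 5 in replicates 2 and 3 alone; the gene added by the replicate block at 12:00 and 16:00 was OsNRT1.1B (log2 0.93 and 0.80, adjusted p = 0.0218 at each). At 0:00 the count of 0 was 1 in replicates 2 and 3 alone. Genotype by hour had a count of 0, and of 2 with DESeq2 and in replicates 2 and 3 alone, and of 1 with limma at a pseudocount of 1. Of the further list 10 passed, and 16 with the replicate block. Steps between neighbouring hours passed 33 times, 52 times with the replicate block and 57 times in replicates 2 and 3 alone. With the replicate block the edgeR test of change over the day also passed for OsNIA1 (adjusted p = 8.71e-08 in GL and 5.01e-08 in OE) and OsNiR1 (0.00324 and 0.0265). With 1 library left out, counts ran from 2 to 3 for the average, 0 to 1 at 4:00, 8:00 and 20:00, 1 to 1 at 16:00, 0 to 2 for genotype by hour, 5 to 7 and 6 to 7 for the day in GL and OE, and 9 to 11 for the further list.

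Genes that did not pass over all libraries changed sign in the averaged comparison as follows. OsNiR1 (0.0315) was -0.291 and -0.357 with limma at pseudocounts of 1 and 0.1, -0.298 with the replicate block, -0.58 in replicates 2 and 3 alone, -0.117 with GL replicate 3 at 0:00 grouped as OE, and -0.88 to 0.92 with 1 library left out. OsGS1;1 (-0.006) was 0.1 with library totals, 0.00116 and 0.00196 with limma, 0.00517 with the replicate block, 0.11 in replicates 2 and 3 alone, and -0.0337 to 0.025 with 1 library left out. In replicates 2 and 3 alone OsGS2 was -0.075 and Fd-GOGAT -0.102; with 1 library left out OsGS2 ran from -0.0388 to 0.0939 and OsNIA1 from -1.15 to 0.33. OsNIA1 passed in replicates 2 and 3 alone (-1.33). The cause was not tested. OsNiR1 summed with its opposite-strand locus had 0.02 (adjusted p = 1). DESeq2 gave no adjusted p for OsNIA1 and OsNiR1. Same-numbered libraries of the genotypes correlated in their deviations from the group means by 0.0637 to 0.521 over 18 pairs, 2 of them at or under 0.1, and 28 of 36 libraries correlated best with their own number; the numbers were not taken to pair the samples. Depth limits the low hours most: the lowest count in a library was 5 for OsNIA1, 31 for OsNiR1, 34 for NADH-GOGAT2 and 52 for OsNRT1.1B.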

Other observations

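For each gene, the loci with the most similar pattern were ranked by Pearson r over the 12 group means of log2 CPM, among 16072 genes. They were OS02G0717500 and OS12G0556300 for OsNRT1.1B (r = 0.945 and 0.937), OS05G0148700 and OS01G0362100 for OsNIA1 (0.987 and 0.987), and OS01G0846800 and OS01G0753100 for OsGS1;1 (0.998 and 0.992). For OsGS2 they were OS11G0644500 and OS08G0269600 (0.985 and 0.976), for NADH-GOGAT2 OS03G0766500 and OS01G0549700 (0.983 and 0.965), and for Fd-GOGAT OS12G0418900 and OS06G0217600 (0.977 and 0.964). For OsAMT1;1 the second was OS01G0266800 (0.995), behind a locus that the files call a new gene (0.995). For OsNiR1 the first was its opposite-strand locus OS01G0357150 (0.997) and the next OS05G0168800 (0.987). The group means share libraries, depth and the hour, and the files give these loci no name.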
